A study of Drosophila melanogaster with 2 samples.

Results

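Of the 30000 peaks in the pooled list of Mes4-GFP binding in Drosophila melanogaster embryos, 524 lay at the start of a noncoding RNA gene that stood alone. A peak was taken when its summit was within 500 bp of the transcription start site (TSS) of a gene that Ensembl classes as ncRNA and over 1000 bp from every protein-coding TSS. The study has 1 group of 2 samples, biological replicates 3 and 4: whole embryos of both sexes, 0 to 16 h old, from 1 transgenic line (Mes4-GFP) in which GFP is joined to the C-terminal end of Mes4. Sonication gave fragments of 200 to 800 bp, and the fusion protein was recovered through its GFP tag with an anti-GFP antibody. No embryos of another genotype are compared, the tagged protein was the one pulled down in both samples, and whole embryos mix all cell types, so a peak cannot be assigned to a tissue. Replicates are described by their labels as biological, and the control that both share was not analysed here. The authors' optimal IDR list, which is based on reproducibility between replicates, held 75 of the 524. In rank it coincides with the top of the pooled list: no pooled peak outside it has a higher signal than its weakest peak, so each share of optimal peaks given here is also the share above 1 level of pooled signal.

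Mes4 is a small nuclear protein with a histone fold, the fold through which subunits of several DNA-binding complexes pair, and it is a different gene from the methyltransferase Mes-4. Long noncoding RNAs (lncRNAs) are transcribed by RNA polymerase II from promoters much like those of protein-coding genes. Some of them are the primary transcripts of microRNAs or small nucleolar RNAs, some act as RNA (roX1 and roX2 coat the male X chromosome, and flam is the source of piRNAs that silence retrotransposons in ovarian follicle cells), and for most of the numbered CR genes no role is known. Antisense RNAs (asRNAs) run against a protein-coding gene. For microRNA entries the annotated 5′ end is a processing site and not a transcription start.

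The sequences under 7 summits of the optimal list are printed as examples: 5 from among the strongest members, which include 2 hosts of microRNAs, and both members of that list at noncoding RNAs with a name of their own. Each is 201 bases in dm6 (100 on either side of the summit), 5′ to 3′ on the strand of the noncoding RNA, from the Release 6 RefSeq sequence. Capitals mark matches, on either strand, to the TATA box (TATAAA), to the NF-Y site CCAAT, to the GATA factor site AGATAA, to the BEAF-32 motif CGATA or to the GAGA factor site GAGAGA.
lncRNA:CR31840, chr2L:14023983-14024183, minus strand: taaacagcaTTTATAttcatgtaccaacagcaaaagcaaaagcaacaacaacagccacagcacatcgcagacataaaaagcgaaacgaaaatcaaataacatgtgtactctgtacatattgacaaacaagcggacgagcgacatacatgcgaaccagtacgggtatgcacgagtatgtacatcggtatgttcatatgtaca
lncRNA:CR44619, upstream peak, chrX:12751296-12751496, plus strand: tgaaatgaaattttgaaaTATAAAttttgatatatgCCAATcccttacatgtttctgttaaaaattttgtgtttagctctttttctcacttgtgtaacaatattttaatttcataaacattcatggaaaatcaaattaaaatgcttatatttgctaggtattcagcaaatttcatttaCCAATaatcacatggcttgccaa
lncRNA:CR44619, downstream peak, chrX:12752254-12752454, plus strand: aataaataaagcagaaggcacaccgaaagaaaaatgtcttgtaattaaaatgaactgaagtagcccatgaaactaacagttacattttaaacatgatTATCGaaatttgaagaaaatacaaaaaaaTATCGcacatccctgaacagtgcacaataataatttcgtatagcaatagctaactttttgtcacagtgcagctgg
lncRNA:CR31044, chr3R:29214351-29214551, plus strand: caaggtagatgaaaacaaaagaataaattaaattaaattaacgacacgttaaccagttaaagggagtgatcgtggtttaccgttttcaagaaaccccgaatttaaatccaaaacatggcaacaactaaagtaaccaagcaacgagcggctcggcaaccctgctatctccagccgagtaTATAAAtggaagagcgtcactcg
lncRNA:CR43626, chr3L:3250119-3250319, plus strand: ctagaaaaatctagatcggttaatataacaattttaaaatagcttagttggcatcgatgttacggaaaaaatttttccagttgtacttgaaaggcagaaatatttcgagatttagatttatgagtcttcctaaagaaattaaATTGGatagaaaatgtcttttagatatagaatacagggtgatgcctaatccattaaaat
lncRNA:flam, chrX:21631671-21631871, plus strand: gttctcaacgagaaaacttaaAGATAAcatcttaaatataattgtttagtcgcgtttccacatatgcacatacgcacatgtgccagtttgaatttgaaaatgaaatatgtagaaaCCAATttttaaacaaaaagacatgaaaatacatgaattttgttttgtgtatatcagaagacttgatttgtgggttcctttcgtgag
Uhg3, chr2L:20647425-20647625, plus strand: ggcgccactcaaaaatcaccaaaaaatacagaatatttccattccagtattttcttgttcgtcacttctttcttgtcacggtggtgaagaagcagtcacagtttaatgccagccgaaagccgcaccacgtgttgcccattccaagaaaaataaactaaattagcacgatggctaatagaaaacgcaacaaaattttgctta
In the CR31044 window a TATA box in the gene's direction began at −33 from the annotated TSS. In the CR31840 window the match was on the opposite strand, at −75. The downstream CR44619 window held 2 BEAF-32 matches and no TATA box, the flam window a GATA and a CCAAT match, and the Uhg3 window none of these 5 motifs.

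The strongest peak at a stand-alone noncoding start was at CR31840 on 2L (14023913 to 14024252), 16 bp inside the gene and 2918 bp from the nearest coding TSS, that of hll. Its signal, the enrichment value that the authors' peak caller gave, on a scale that is not stated, was 647 in replicate 3, 419 in replicate 4 and 1064 in the pooled list. This placed it at rank 10 of 30000 in the pooled list, 9 in replicate 3 and 12 in replicate 4, so its order was nearly the same in both samples. The lncRNA CR44619 on X carried 2 strong peaks, at ranks 18 and 38. The one centred 471 bp upstream (12751168 to 12751642) had signals of 533 in replicate 3 and 354 in replicate 4, and the one centred 487 bp downstream (12752203 to 12752525) had 405 and 296 in the same order. Upstream of them the start of the lncRNA Vinr had a weak peak at rank 4699, outside the optimal list. The strong pair thus flanked the start of CR44619 and not that of Vinr. However, Vinr runs on the same strand from −1973 to 483 bp relative to the CR44619 start. The upstream summit therefore lay inside Vinr and the downstream one just past its end. Both were near the 500 bp limit of the rule, and which gene they belong to was not tested.

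**Figure D1:**
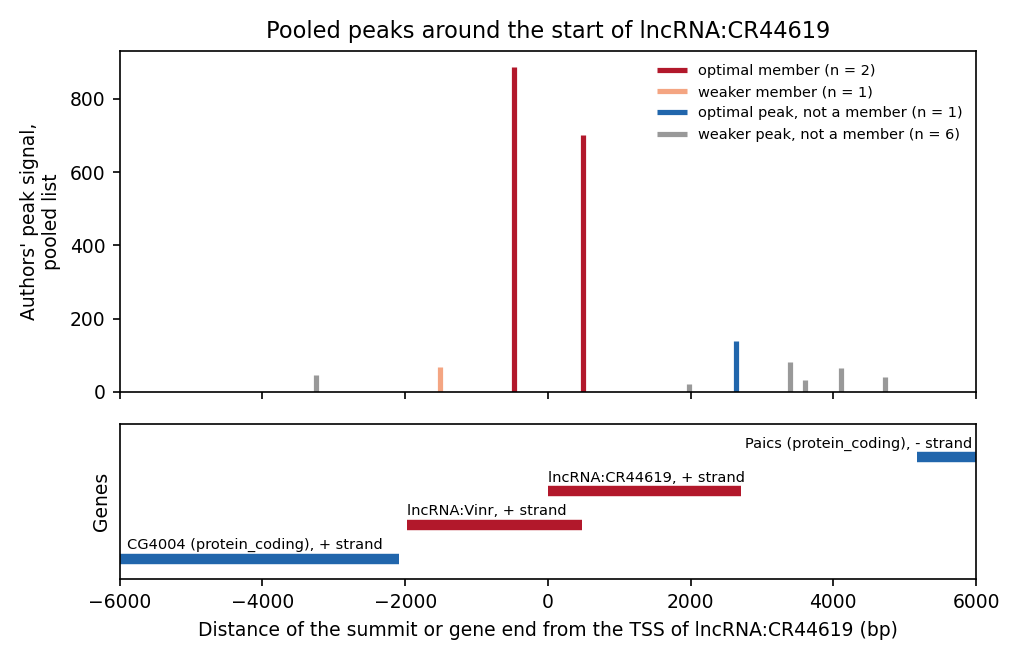
Pooled peaks within 6000 bp of the start of CR44619. The height of each line is the authors' pooled signal (upper panel) and bars are annotated genes (lower panel, red for lncRNAs and blue for protein-coding genes); the 2 optimal members, at signals of 887 and 701, stand on either side of the start, and the next in height is 140 at 2632 bp downstream.

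Next in strength was CR31044 on 3R (29214258 to 29214612), the primary transcript of mir-279 and mir-996, microRNAs known for a role in olfactory neurons. Its summit was 111 bp upstream of the TSS and its signal was 356 in replicate 3 and 258 in replicate 4, at ranks 52 and 49. The strongest member of 3L was CR43626 at rank 150 (3250011 to 3250426; 237 in replicate 3 and 164 in replicate 4), and that of 2R was CR44810 at rank 107 (24329439 to 24329713; 274 in replicate 3 and 204 in replicate 4), 4536 bp from slbo, which encodes a C/EBP factor needed for border cell migration. Chromosome 4 had 3 members and none in the optimal list, the strongest being CR44440 at rank 15383 with a peak in replicate 3 only. The other members among the 25 strongest lay at mir-9378 (rank 166), CR44380, CR46102, CR44867, CR44917, CR46535, CR44676, CR45997, asRNA:CR45999, CR44222, asRNA:CR45281, CR44478, CR44339, CR45290, CR43838, CR46265, CR45251, CR45888 and CR34335 (rank 986). In these 25 the signal ran from 102 to 647 in replicate 3 (median 153) and from 60.6 to 419 in replicate 4 (median 119). All 25 ranked at or above 988 in replicate 3 and 1279 in replicate 4. The other 50 optimal members had lower signals, from 20.6 to 104 in replicate 3 and from 25.1 to 74.0 in replicate 4, and the 2 ranges overlapped those of the 25 only at their tops.

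The 75 optimal members were 14.3% of the 524 (95% Wilson interval 11.6 to 17.6), where 10.7% of all pooled peaks are in the optimal list. Peaks within 500 bp of a protein-coding TSS had 17.8% (17.1 to 18.6; 1624 of 9109), and distal peaks, over 1000 bp from every TSS, had 7.27% (6.88 to 7.68; 1168 of 16063). The share at stand-alone noncoding starts was thus between those of coding starts and distal sites. Its interval overlapped that of coding starts and lay above that of distal peaks. The median signal over all peaks of each class had the same order: 35.3 in the members, 42.9 at coding starts and 32.0 in distal peaks. Over all pooled peaks it was 34.6, close to that of the members. This order is not separate evidence, since the optimal share is a cut on the same signal. Intervals cover the counting of peaks only, not the spread between embryos. Members can also overlap each other. With summits chained within 2000 bp the 524 members lay in 410 loci and the 75 optimal ones in 69. Merging overlapping members left 463, of which 15.3% were optimal.

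**Figure D2:**
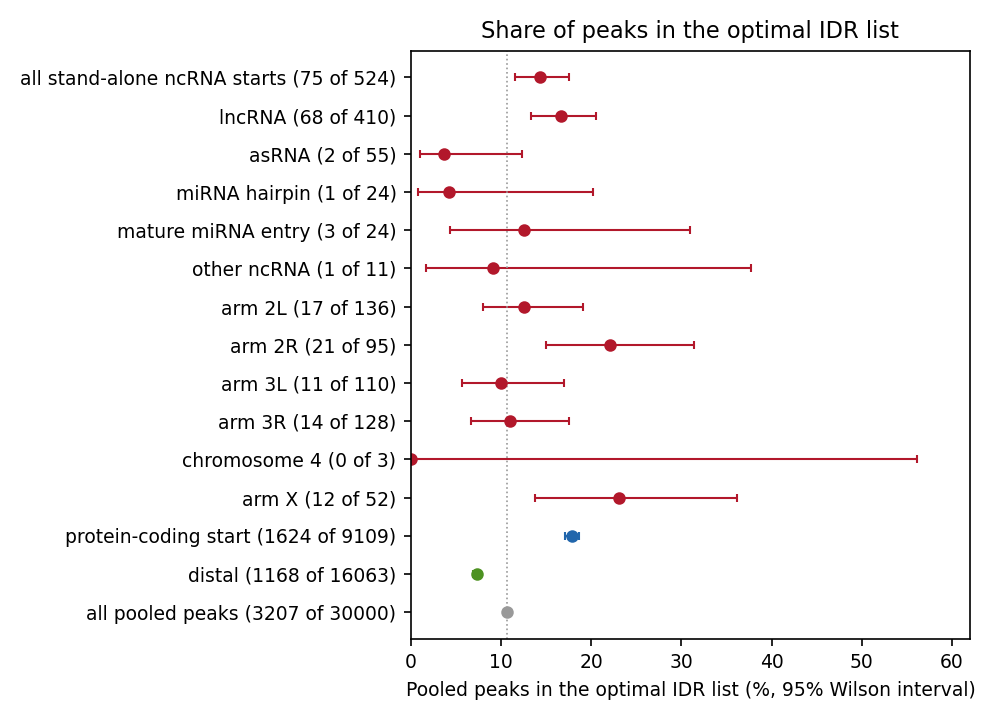
Share of pooled peaks that are in the optimal list (x axis, percent, with 95% Wilson intervals) for peaks at stand-alone noncoding starts, by gene class and chromosome arm (red), and for coding-start (blue), distal (green) and all pooled peaks (grey; dotted line). lncRNA starts stand at 16.6%, asRNA starts at 3.64%, and arms 2R and X at 22.1% and 23.1%.

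By class, lncRNAs made up 410 of the members and 68 of the optimal ones (16.6%; 13.3 to 20.5). asRNAs had 55 members and 2 in the optimal list, at CR45999 and CR45281 (3.64%; 1.00 to 12.3), and these intervals did not overlap. microRNA hairpins had 1 optimal of 24 members (4.17%), mature microRNA entries 3 of 24 (12.5%) and other noncoding RNAs 1 of 11 (9.09%), all with intervals too wide to set them apart. At the level of genes, 79 of 2331 stand-alone noncoding genes (3.39%; 2.73 to 4.20) had an optimal member within 500 bp of a TSS, against 2101 of 13945 protein-coding genes (15.1%; 14.5 to 15.7). With the relaxed list the shares were 22.0% of the noncoding genes and 54.6% of the coding genes. These 2 sets of genes are not alike. The noncoding set includes 197 microRNA hairpins and 371 mature microRNA entries, and 1 peak can count for several entries of the same microRNA. Coding genes were not required to stand alone, so 1 peak can count for neighbouring genes. Of stand-alone asRNA genes 2 of 211 (0.948%) had an optimal peak, against 64 of 1518 lncRNA genes (4.22%).

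lncRNAs that hold a microRNA hairpin on their own strand, a group set apart after the ranks were seen, carried peaks more often than other lncRNAs. Of 31 such stand-alone host genes, 5 (16.1%; 7.09 to 32.6) had an optimal peak and 22 (71.0%) had a relaxed one, against 59 of 1484 other lncRNA genes (3.98%; 3.09 to 5.09) with an optimal peak and 21.2% with a relaxed one. Hosts more often have several annotated starts. Among genes with 1 stand-alone TSS the relaxed shares were 12 of 18 hosts (66.7%) and 20.7% of 1430 other lncRNAs. Optimal peaks were at 2 of those 18 and 55 of those 1430, a small count for the hosts. Whether the number of starts accounts for the difference was not tested.
The 5 hosts were CR31044, CR43626 (mir-282), CR43650 (mir-8, a microRNA of growth and neuronal survival), CR43651 (mir-14, linked to cell death and fat metabolism) and CR44206 (mir-184, needed in the female germ line and the early embryo). The peak at CR43651 was centred 48 bp inside the gene and had signals of 85.4 in replicate 3 and 54.9 in replicate 4. That at CR44206 was 6 bp upstream of the nearest annotated TSS and had 77.9 in replicate 3 and 31.1 in replicate 4. It lay inside an exon of the gene, which has another start farther upstream. CR43650 with mir-8 held the most members of any locus, 5, of which 2 were optimal: at rank 1002, 199 bp upstream of a TSS, with signals of 104 in replicate 3 and 72.3 in replicate 4, and at rank 2063, 1 bp from a TSS, with 67.9 and 33.5 in the same order. These 2 optimal peaks overlap each other.
Host starts with weaker peaks included those of bantam (CR43334, mir-ban, which promotes growth; rank 3961), mir-275 (CR43857; rank 3772), mir-9a (CR45916; rank 6050), iab8 (rank 4745), let7C, the host of let-7, mir-100 and mir-125 (rank 11596), mir-1 (CR45361; rank 14036) and iab4 (rank 24800). Of the 5 stand-alone hosts of small nucleolar RNAs, Uhg3 alone had an optimal peak (2L 20647317 to 20647732, rank 2324), 8 bp upstream of its TSS, with signals of 49.8 in replicate 3 and 48.7 in replicate 4.

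Few noncoding RNAs with a name of their own had an optimal peak, as was the case for stand-alone noncoding genes in general. Ensembl lists 98 such genes apart from microRNA entries, 62 of them stand-alone. Among the 62, 2 had an optimal member (flam and Uhg3), 18 more had weaker members, 1 had a relaxed peak too near a coding TSS to be a member, and 41 had none. Over all 2331 stand-alone noncoding genes, which unlike the 62 include microRNA entries, 79 (3.39%) had an optimal member and 513 (22.0%) had any member. For stand-alone lncRNA genes alone these shares were 4.22% and 22.3%. The named genes were thus near these shares for optimal members, and with 20 of 62 not below them for members of any strength. At flam (X 21631563 to 21631978, rank 2198) the summit was 120 bp upstream of the TSS, and the signal was 74.1 in replicate 3 and 35.2 in replicate 4. roX1 had a weak peak 113 bp inside the gene, with 32.1 in replicate 3 and 30.0 in replicate 4 (rank 5030). roX2 had one 154 bp inside, with 26.8 and 23.1 in the same order (rank 8202). Hsromega, a heat-shock RNA that organizes nuclear speckles, had 3 weak peaks, the highest at rank 5612 with 34.6 in replicate 3 and 15.7 in replicate 4. marge was at rank 3495, yar (between y and ac) at 3824, TS2 at 5888 and the RNA subunit of RNase MRP at 11498. Genes with no relaxed peak within 500 bp included bxd, acal, cherub, CRG, Yu, noe, Uhg7 and the RNA subunit of RNase P. The highest named gene outside the optimal list was therefore marge, whose ranks were 2410 in replicate 3 and 8883 in replicate 4.

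The summits were less tightly placed at the noncoding starts than summits were at coding starts. In the optimal list 18 of 75 members (24.0%; 15.8 to 34.8) lay within 100 bp of the noncoding TSS, against 832 of 1624 coding-start peaks (51.2%; 48.8 to 53.7) within 100 bp of theirs. The median distance was 207 bp for the members and 97 bp at coding starts. In successive bands of 100 bp from the TSS the optimal members numbered 18, 19, 9, 18 and 11, and the optimal coding-start peaks 832, 413, 187, 110 and 82. The members were thus spread over the whole 500 bp that the rule allows, while coding-start summits thinned out with distance. Of the 75, 42 lay upstream of the nearest annotated TSS, some of them inside the gene where it has an earlier start.

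The same held when all optimal summits were counted around starts that are over 3000 bp from a TSS of the other kind, with microRNA entries left out. Around 1132 stand-alone noncoding starts there were 43 summits within 500 bp and 50 at 1000 to 2000 bp. Per kb and 1000 starts this was 38.0 within 500 bp and 22.1 farther out, a ratio of 1.72. Around 11776 coding starts it was 140 within 500 bp and 28.5 farther out, a ratio of 4.91. In the relaxed list the ratios were 1.19 at noncoding and 2.08 at coding starts. With each replicate's own strongest peaks, as many as the optimal list holds, the ratio was 1.6 at noncoding and 4.77 at coding starts in replicate 3, and 1.5 at noncoding and 5 at coding starts in replicate 4, a gap between the kinds of start far wider than that between replicates.

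**Figure D3:**
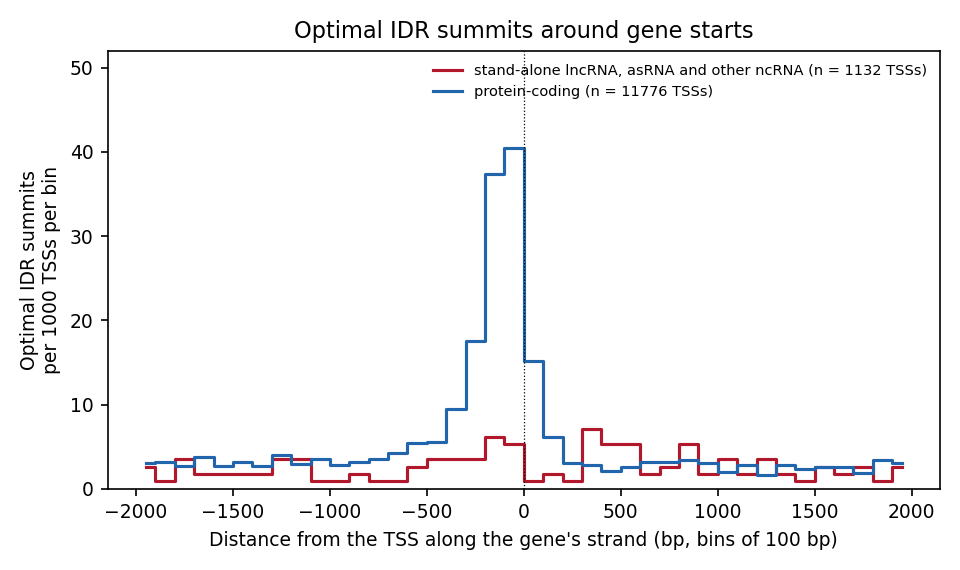
Optimal summits per 1000 starts in bins of 100 bp (y axis) against the distance from the TSS along the gene's strand (x axis, bp) for 1132 stand-alone noncoding (red) and 11776 protein-coding starts (blue). The coding profile has a narrow maximum just upstream of the TSS, and the noncoding profile stays low over the whole window, with 43 summits within 500 bp.

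Of the 75 optimal members, 24 (32.0%; 22.5 to 43.2) lay inside a protein-coding gene on either strand, and of all 524 members 185 did (35.3%; 31.3 to 39.5). Of the 2406 stand-alone noncoding TSSs, 964 (40.1%; 38.1 to 42.0) are inside a coding gene. The interval of the optimal members included this value, and that of all 524 members ended just below it. What sets the members' share was not tested. Inside a coding gene lay 58.9% of all optimal peaks, 74.0% of the other pooled peaks and 71.1% of optimal distal peaks. In introns, members on the strand of the host gene were optimal in 10 of 42 cases (23.8%; 13.5 to 38.5), and those on the opposite strand in 12 of 85 (14.1%; 8.26 to 23.1), intervals that overlap. Where the summit lay in a coding exon or UTR, 1 of 57 members was optimal: 1 of 20 on the same strand, none of 34 on the opposite strand and none of 3 where coding genes lay on both. Over all pooled peaks 10.7% were optimal. No such split by intron and exon was made for other peaks, so whether these counts are particular to the members was not tested. Examples inside coding genes were CR46102, on the strand opposite to LpR2, a lipophorin receptor (3R 25738071 to 25738303, rank 191; 219 in replicate 3 and 147 in replicate 4), and CR45997 in an intron of mbl, a splicing regulator, on the same strand (rank 456; 136 in replicate 3 and 119 in replicate 4). CR44222 lay opposite to kis, a chromatin remodeller, with its summit 24 bp from its own TSS and 1581 bp from that of kis (rank 659; 117 in replicate 3 and 95.8 in replicate 4). None of the 524 members was within 1000 bp of an mRNA start in the RefSeq annotation either. The median distance from a coding TSS was 4536 bp for the optimal members and 3821.5 bp for all 524.

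The share of members that were optimal was highest on X and 2R, though with intervals that overlap those of the other arms. On X it was 12 of 52 (23.1%; 13.7 to 36.1) and on 2R 21 of 95 (22.1%; 14.9 to 31.4), while 2L had 17 of 136 (12.5%; 7.95 to 19.1), 3R 14 of 128 (10.9%; 6.63 to 17.5) and 3L 11 of 110 (10%; 5.68 to 17.0). Over all pooled peaks the same arms stood close together, from 10.1% on 3L to 11.3% on X, and the lower bounds for X and 2R were above those values. Several 2R members sit at the same locus, but with members chained into loci within 2000 bp X and 2R still stood highest. On X it was 11 of 48 loci (22.9%; 13.3 to 36.5) and on 2R 17 of 74 (23.0%; 14.9 to 33.7), against 11.2% to 16.3% on the other large arms. With 1 replicate's own strongest peaks, as many as the optimal list holds, in place of that list, the share was 20% on X and 25.3% on 2R in replicate 3, and 25.5% on X and 19.5% on 2R in replicate 4, and on the other large arms it stayed between 8.15% and 12.6%. X held few members in all, 9.92% of them against 16.8% of all pooled peaks.

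In the 2 replicates the members agreed about as well as other peaks of their strength. A summit within 200 bp was present in both relaxed lists for 268 of the 524 members (51.1%; 46.9 to 55.4), where 49.6% of all pooled peaks had one. All 75 optimal members were matched in both, as were 99.8% of all optimal peaks, which the selection of that list for reproducibility largely fixes. Of the 449 weaker members 193 were (43.0%; 38.5 to 47.6), against 43.6% of all weaker pooled peaks. When each replicate's list was cut to its strongest peaks, as many as the optimal list holds, 49 members were in both (9.35%), where 7.93% of all pooled peaks were; 48 of these were optimal members, which is 64.0% of the 75, against 72.8% of all optimal peaks. Spearman's rho between the signals of the 2 replicates was 0.73 over the optimal members and 0.71 over all optimal peaks. Both samples share the control, and 1 replicate peak can match 2 neighbouring members, which happened to 18 members in replicate 3 and 34 in replicate 4.

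**Figure D4:**
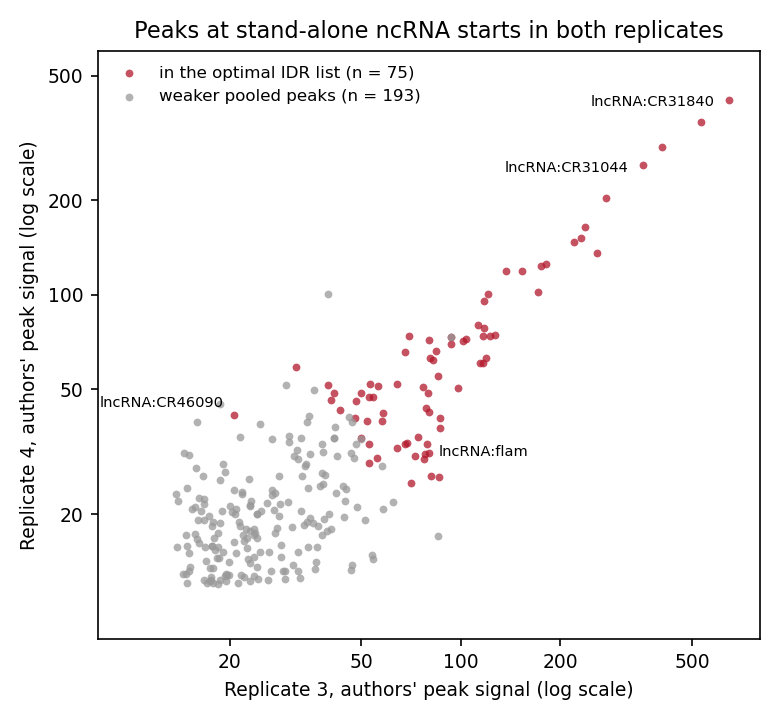
Authors' peak signal in replicate 3 (x axis) and replicate 4 (y axis), both on log scales, for the 268 members matched in both. Optimal members (red, n = 75) reach 647 in replicate 3 and 419 in replicate 4 at CR31840, and most weaker members (grey, n = 193) crowd at low signals, with a median of 22.9 in replicate 3 and 18.7 in replicate 4 over all matched in that replicate.

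The largest disagreement among optimal members was at CR46090 on 3R (pooled rank 1801), which ranked 15894 in replicate 3 with a signal of 20.6 and 2570 in replicate 4 with 41.3. Next were CR45568 on 3R, at 7465 in replicate 3 and 1343 in replicate 4, and the weaker peak of CR44380 on 2R (at 1322 and 6018), CR44420 on 2R (at 1898 and 6565) and CR44331 on 3R (at 1455 and 5944). So 2 of these 5 stood higher in replicate 4 and 3 in replicate 3. The 5 weakest members inside the optimal list were CR43144, the weaker peak of CR44339, CR45539, CR43648 and CR45820, with pooled signals of 89.4 to 87.4. The 5 strongest just outside were CR45595, CR44527, CR45645, CR44761 and CR45695, with 84.1 to 82.5, so the list's edge separates members of nearly equal signal.

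Core promoter motifs of broadly expressed genes were absent within 100 bp of the summits of the optimal members. The DNA replication-related element (DRE, TATCGATA), Motif 1, Motif 6 and Motif 7 are sequence elements of housekeeping promoters in this fly. Searched on both strands within 100 bp of the summit, none of the 4 was found at any of the 75 optimal members (0%; upper bound 4.87%), against 345 of 1624 optimal coding-start peaks (21.2%; 19.3 to 23.3) and 30 of 1168 optimal distal peaks (2.57%; 1.80 to 3.64). All pooled peaks had 6.31% and the 449 weaker members 4.23%. With 200 bp on either side 3 of 75 members (4.00%; 1.37 to 11.1) and 32.8% of optimal coding-start peaks had a match. The members' intervals included the value of the distal peaks and lay below that of the coding starts. However, windows of 100 bp on either side of the summit reached the annotated TSS in only 24.0% of optimal members. At optimal coding-start peaks they did so in 51.2%. The shares therefore describe summits and are not a like comparison of the starts themselves, where these 4 motifs were not counted. The BEAF-32 motif CGATA, bound by an insulator protein and contained in the DRE, was at 13 of 75 optimal members (17.3%; 10.4 to 27.4), 40.1% of optimal coding-start peaks, 21.8% of optimal distal peaks and 24.4% of all pooled peaks.

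For the other motifs the members' intervals included the values of optimal coding-start and optimal distal peaks. CCAAT, the site of NF-Y, another histone-fold complex, was at 25 of 75 members (33.3%; 23.7 to 44.6), 33.7% of optimal coding-start peaks, 32.1% of optimal distal peaks and 33.4% of all pooled peaks. TATAAA was at 24 of 75 (32.0%; 22.5 to 43.2), 29.2% of optimal coding-start and 27.7% of optimal distal peaks. Weaker members had it in 16.9% (13.7 to 20.7) and all pooled peaks in 18.8%. The optimal members' bases were more A and T rich, with a median GC content of 36.8% in the 201 bases, against 43.3% in all members, 37.3% in all optimal peaks and 44.3% in all pooled peaks. In windows of the same length centred 500 bp away from the summits, TATAAA was in 28.7% at optimal members and 24.6% at weaker members, so the share at the optimal members' summits was close to that of their flanks and the share at the weaker members' summits was lower than in theirs. A TATAAA placed 20 to 40 bp before the TSS, where a TATA box acts, was at 2 of 66 noncoding starts nearest to optimal members (3.03%; microRNA entries left out), against 2.58% of 1862 stand-alone noncoding starts and 6.87% of 19253 coding starts. GAGAGA, the site of GAGA factor, was at 14.7% of optimal members and 9.64% of all pooled peaks. AGATAA was at 13.3% of optimal members and 9.98% of all pooled peaks, and the initiator-like TCAGTT was at 10.7% of optimal members and 12.4% of all pooled peaks. The E-box CAGCTG was at 8% of optimal members and 11.5% of all pooled peaks, and the Zelda site CAGGTA was at 2.67% of optimal members and 4.64% of all pooled peaks. For these 5 motifs the members' interval included the pooled value.

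**Figure D5:**
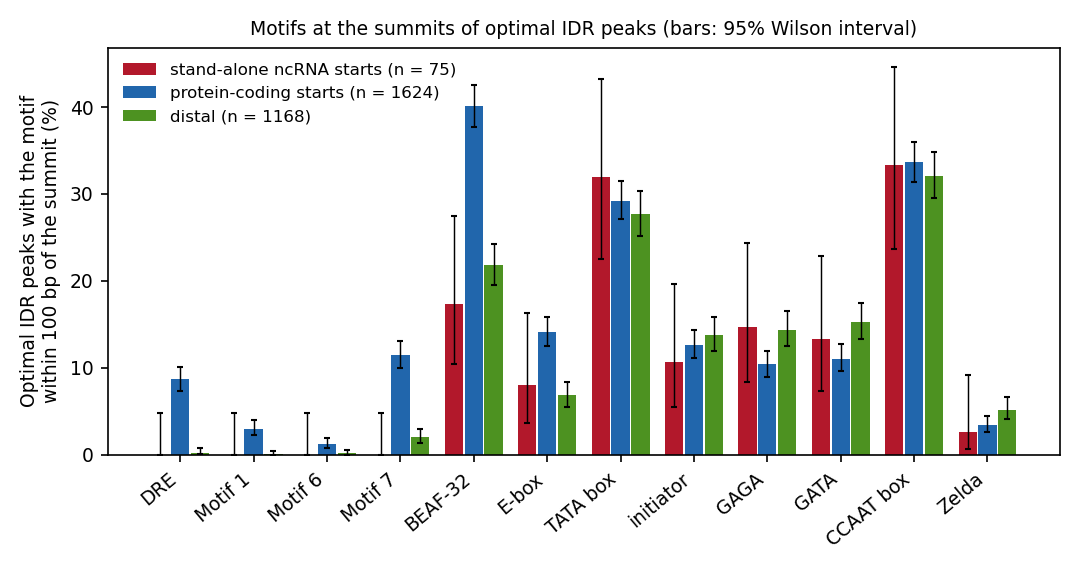
Share of optimal peaks with each of the 12 motifs within 100 bp of the summit (y axis, percent; black lines are 95% Wilson intervals) at stand-alone noncoding starts (red, n = 75), coding starts (blue, n = 1624) and distal sites (green, n = 1168). The first 4 motifs are at 0 in the red bars, and BEAF-32 stands at 17.3% in red and 40.1% in blue.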

How the data were processed

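The lists are narrowPeak files in dm6. Per the deposited readme files, a relaxed list was made by the authors for each replicate and for the pooled reads, each against 1 control that both replicates share, and an optimal IDR list from these. Which aligner and peak caller were used, and at what IDR threshold, is not given in the sources used here. The deposited signal is the peak caller's value per peak, on a scale that is not stated, and it was used to rank and describe peaks within each list, and its size was not compared between lists. The deposited −log10 q-value is at its maximum in all optimal peaks and was not used for ranking. Another deposited number, the summit offset, gave the summit. The files hold no read counts, so depth is unknown, and the 4 dm3 lists were not used.

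TSSs came from Ensembl release 115 for 18164 genes on 2L, 2R, 3L, 3R, 4 and X. Ensembl's ncRNA class holds 3261 genes, among them 260 microRNA hairpins and 481 mature microRNA entries. Coordinates are 1-based. Optimal members are the pooled rows that the optimal list repeats with the same start, end and signal, since 4 pairs of pooled peaks share start and end. Replicate peaks were matched by the nearest summit within 200 bp. Loci chain summits within 2000 bp. Motif letters were searched on both strands in the RefSeq Release 6 sequence with Python 3.11.15 and pyfaidx 0.9.0.4, and SciPy 1.17.1 gave 95% Wilson intervals. The rule and the matching were checked on simulated peaks. With 1 group there is no contrast, and no p-value was computed: peaks are not replicates.

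The members, the motifs and the gene lists were chosen with earlier results of these data known. Genes are named at the 25 strongest members, the strongest of each arm, non-CR names, the 5 members on either side of the optimal list's edge and the 5 with the largest rank difference between replicates. microRNA and small nucleolar RNA hosts were added after their values were seen.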

Additional observations from a re-analysis of the deposited data

How the results depend on the processing

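Of 135 recomputed values, 112 stayed within their interval or within 1.5 times the main count, and 23 moved. No paired analysis was possible because the labels give 1 group. With 1 replicate left out, members came from the other's own relaxed list, cut at as many strongest peaks as the optimal list holds. Among those strongest were 13.4% of 521 members without replicate 3 and 13.2% of 567 without replicate 4. Over all peaks of such a list the share is 10.7% by construction, and it is not an IDR result. Leaving out microRNA entries, chosen after seeing the data, gave an optimal share of 14.9%, and leaving out members near RefSeq mRNA starts removed none. Around stand-alone starts 43 optimal summits became 39 to 40 with 1 replicate's own list, also chosen then. A distance of 250 bp from the noncoding TSS gave 280 members, 1.89% of genes with an optimal peak and 30.4% of members inside coding genes, and 1000 bp gave 963 members and 5.62% of genes. Counting only the stronger part of the optimal list, cut at its middle, gave 6.87% of members and 1.67% of genes, with TATAAA at 44.4% and BEAF-32 at 8.33% of the 36 left. The same cut also lowers the share over all pooled peaks, which is 10.7% with the full optimal list. The 6.87% therefore cannot be set against that value and shows no fall relative to other peaks. Matching within 100 bp and 500 bp gave 38.7% and 62% of members in both replicates. The shares of all pooled peaks at these distances are not given here, so members and other peaks were compared at 200 bp only. Inside coding genes lay 40.2% of members when coding TSSs were kept only 500 bp away, and 12.6% on the same and 23.5% on the opposite strand. In windows of 50 bp TATAAA was at 21.3%, GAGAGA at 5.33%, CCAAT at 20%, CAGCTG at 2.67% and BEAF-32 at 6.67%, and in windows of 200 bp TCAGTT was at 25.3%, GAGAGA at 26.7%, CCAAT at 53.3% and BEAF-32 at 34.7%. Most of these shift by construction, since they count fewer peaks or bases. The limits are 2 samples with a shared control, unknown depth, small classes, and annotated rather than measured starts.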

Other observations

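A further 507 pooled peaks lay within 500 bp of a noncoding TSS but not over 1000 bp from every coding TSS. Of these, 76 were in the optimal list (15.0%; 12.1 to 18.4), against the 14.3% of stand-alone noncoding starts. Their median signal was 41.4, against 35.3 in the members, and reached 903. Counting all 3261 noncoding genes, stand-alone or not, 154 (4.72%; 4.05 to 5.51) had an optimal summit within 500 bp of a TSS. Among the snoRNA hosts that share their neighbourhood with a coding start, Uhg4 and Uhg5 had an optimal peak, and Uhg1, Uhg2 and Uhg8 had relaxed peaks only.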
